A study of Mus musculus with 36 samples.

Results

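Genes of the basal stem cells of the olfactory epithelium were followed here: 7 genes out of the 24634 named in the MOE tables and 24631 in the VNO and OB tables. They were taken as a fixed list of genes of horizontal basal cells (Krt5, Krt14, Krt15, Krt17 and Trp63) and globose basal cells (Lgr5 and Kit) with the values of a gene's transcripts summed, and the list was drawn up with earlier results of these data known. RNA was sequenced from the main olfactory epithelium (MOE), the vomeronasal organ (VNO) and the olfactory bulb (OB) of C57BL/6 mice at 6 months of age. Females and males were either caged 4 per cage with their own sex from weaning at 3 weeks, in rooms of that sex (sex-separated females, SF, and males, SM), or caged with both sexes together (sex-combined females, CF, and males, CM). Each of the 12 combinations of tissue and group had 3 libraries, 36 in all, and each library was a pool of RNA from several mice (2 in the series' design text, while the methods of the study differ). The tissues were dissected from the same mice, but which pools share mice is not given, and the comparisons of tissues count the 36 libraries as independent. Pups were born in the sex-combined cages and removed, so mating is not told apart from exposure to the other sex. The MOE and VNO were whole dissected tissues and not sorted cells, and in such bulk samples fewer cells of a type and less RNA per cell cannot be told apart.

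The olfactory epithelium renews its sensory neurons throughout life from basal cells lying on the basement membrane. Horizontal basal cells are a mostly quiescent reserve that express keratins 5 and 14 and the transcription factor p63, the product of Trp63, which holds them undifferentiated. Globose basal cells above them divide and give rise to neurons and supporting cells. Lgr5 is a receptor for R-spondins, which amplify Wnt signals, and Kit is the receptor tyrosine kinase for stem cell factor. None of these genes is restricted to olfactory basal cells, since Krt5, Krt14, Krt17 and Trp63 are also used by basal cells of other stratified epithelia and by myoepithelial cells, Kit by mast cells, and Lgr5 and Kit by neurons.

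Values were deposited as FPKM (fragments per kilobase of transcript, scaled by the mapped fragments of the library), which is a level per transcript length and can be compared between genes. Fragments on listed transcripts, estimated from the deposited confidence limits, summed to 3016524 to 5902159 in the MOE libraries. The sums were 3373400 to 6779893 for VNO and 3592966 to 6437263 for OB. These sums are not the sequencing depth, and the study lists more aligned pairs for every library. The lowest MOE sum was that of CM3, the third CM library. In the study's list CM3 had the most input pairs of the MOE libraries, but the lowest shares of reads aligned and of pairs aligned concordantly. Labels were checked with marker genes. Omp, a gene of mature olfactory neurons, lay between 638 and 1130 FPKM in MOE libraries, with 80.6 to 116 in VNO and 27.6 to 42.7 in OB. Xist was at 11.8 FPKM or more in all 18 female libraries and at most 0.0793 in all 18 male libraries. Uty, on the Y chromosome, was at 4.92 FPKM or more in male libraries and at most 0.0265 in female ones.

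Some stretches of these transcripts decide which gene or isoform a read is assigned to, and are shown for that reason. Keratin genes arose by duplication, and 14.4% of the 50-base words of the Krt14 transcript and 12.2% of those of Krt5 also occur in another gene, against 3.995% for Krt17, 0.666% for Krt15, 1.31% for Lgr5 and 0% for Trp63 and Kit. The other genes are Krt16 (188 words) and Krt17 (55 words) for Krt14, and Krt6a (150 words), Krt6b and 3 predicted genes for Krt5. The longest run shared by the coding parts of Krt14 and Krt17 has 71 bases (coding positions 1216 to 1286 of Krt14 and 1105 to 1175 of Krt17), longer than a read end of 50 bases, and the capitals mark the 16 bases that Krt5 holds as well. The run shared by Krt15 and Krt17 has 50 bases.
Krt14 and Krt17: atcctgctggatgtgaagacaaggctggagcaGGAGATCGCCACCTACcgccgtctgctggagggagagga
Krt15 and Krt17: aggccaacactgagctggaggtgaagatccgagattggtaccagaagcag
Trp63 has a start that gives proteins with a transactivation domain (TA) and a start further downstream that gives proteins without it (DN). In the GENCODE M21 transcripts (build GRCm38), the DN coding sequence opens with 41 bases of its own, in capitals before the part common to both, and the TA form with 323 bases of its own, of which the first 45 are shown. For Kit, capitals mark 12 coding bases that NM_001122733 has and NM_021099 lacks, which add 4 amino acids to the extracellular part of the receptor.
Trp63 DN start: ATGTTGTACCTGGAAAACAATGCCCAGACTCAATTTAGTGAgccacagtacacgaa
Trp63 TA start: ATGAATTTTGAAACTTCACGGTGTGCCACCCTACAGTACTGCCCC
Kit insertion: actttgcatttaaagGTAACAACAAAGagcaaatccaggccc

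The 4 keratins were abundant in both sensory epithelia and at the limit of detection in OB, whereas Lgr5 and Kit were highest in OB. In MOE, Krt17 had the highest mean level of the 7 genes at 13.0 ± 4.17 FPKM (SD, n = 12 libraries), followed by Krt5 at 9.58 ± 1.76, Krt15 at 8.84 ± 2.89 and Krt14 at 8.60 ± 1.17 FPKM. In VNO, Krt15 was highest at 20.6 ± 10.8 FPKM, with Krt17 at 19.5 ± 14.8, Krt5 at 11.2 ± 2.41 and Krt14 at 8.21 ± 3.59 FPKM. Trp63 was lower in level, at 1.68 ± 0.246 FPKM in MOE and 2.21 ± 0.272 in VNO, and Lgr5 and Kit lower still. The ranges of the library levels of these 4 keratins overlapped in MOE, so the order of Krt5, Krt14 and Krt15 there does not exceed the spread.

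**Figure D1:**
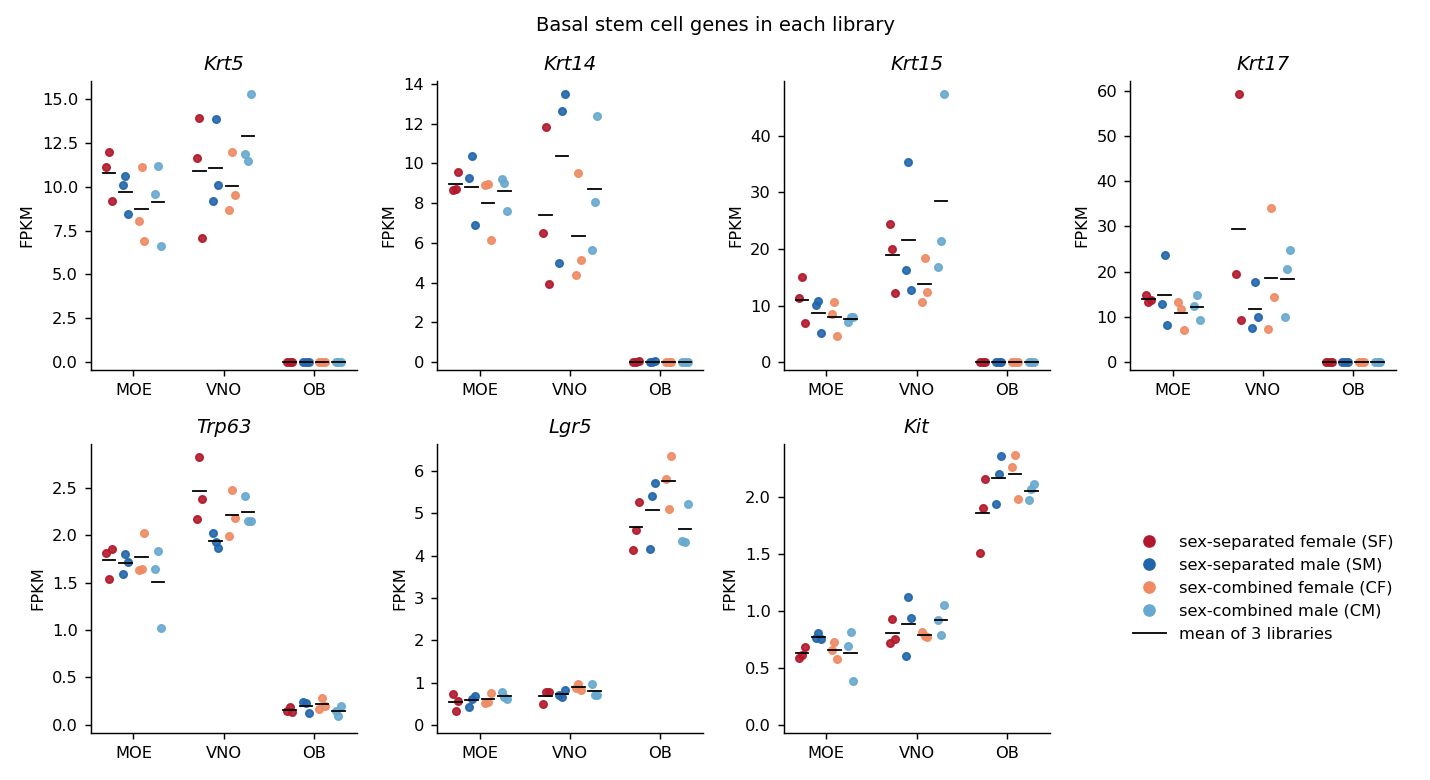
FPKM of each of the 7 genes (1 panel per gene, FPKM on a linear axis from 0) in the 36 libraries, by tissue; points are libraries, colours the 4 groups and short lines the mean of 3 libraries. The keratins and Trp63 sit in MOE and VNO with OB at or near 0, and Lgr5 and Kit are highest in OB, where Lgr5 lies between 4.12 and 6.34 FPKM.

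In OB, each keratin was above 0 in only 2 of 12 libraries. The fragments behind these values summed over the 12 libraries to about 2 for Krt5, 1 for Krt14, 3 for Krt15 and 2 for Krt17, and the largest single value was 0.0580 FPKM, for Krt15. A count of 3 fragments would have been 0.0629 to 0.122 FPKM for Krt5 and 0.0912 to 0.177 for Krt17 in the OB libraries (0.109 to 0.212 for Krt14 and 0.0791 to 0.153 for Krt15), which is the limit that a count of 0 allows, for counting error only. Trp63 was above 0 in all 12 OB libraries, between 0.0945 and 0.283 FPKM, on 6.51 to 18.8 estimated fragments each.

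Lgr5 stood at 0.328 to 0.777 FPKM in MOE and 0.487 to 0.959 in VNO, against 4.12 to 6.34 in OB. Kit stood at 0.389 to 0.818 FPKM in MOE and 0.608 to 1.12 in VNO, against 1.51 to 2.37 in OB. For both genes the lowest OB library lay above the highest MOE and VNO library. In OB, then, the label of basal cell genes is not carried by the data, since the keratins that mark horizontal basal cells are at or under the floor where Lgr5 and Kit are highest. The summed level of the bulb neuron list ran from 418 to 528 FPKM in OB, from 152 to 203 in VNO and from 27.3 to 50.0 in MOE. The VNO sum was nearly all Calb2, a calcium-binding protein, at 177 FPKM in VNO against 144 in OB, so it does not rank the tissues by bulb neurons. Of the 8 genes, 8 were higher in OB than in MOE (39.3% of all genes). Between VNO and OB, 7 were higher in OB (48.0% of all genes) and Calb2 was higher in VNO. Only 2 of the 8 reached a mean of 0.5 FPKM, the minimum for testing, within MOE, and 2 within VNO. Genes that passed only through OB had to be higher there, so these counts are given as a description. The leading gene in OB was Gad1, the enzyme that makes the transmitter GABA, at 180 FPKM in OB, 1.36 in VNO and 0.236 in MOE. The part of bulb neurons in the Lgr5 and Kit levels was not tested.

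The tissues were compared across all genes with limma on log2(FPKM + 0.5), averaged over the 4 groups. Most genes differed: 85.1% of 14627 genes were called between MOE and OB (45.7% higher in MOE and 39.3% lower), 85.8% between VNO and OB (37.8% higher in VNO and 48.0% lower) and 82.6% between MOE and VNO (48.6% higher in MOE and 34.0% lower), at an adjusted p below 0.05. The 4 keratins and Trp63 were under the minimum mean of 0.5 FPKM in OB and entered these fits only through the epithelia, so they had to differ from OB, and their values against OB are given as a description. For Lgr5, MOE was lower than OB by a log2 difference of -2.33 (95% confidence interval -2.47 to -2.19, adjusted p = 1.91e-23) and VNO by -2.12 (-2.26 to -1.98). For Kit the differences were -1.14 (-1.27 to -1.01, adjusted p = 2.04e-16) and -0.93 (-1.06 to -0.80). The fitted difference of Trp63 from OB was 1.68 for MOE and 2.00 for VNO. The fitted differences of the keratins from OB were 4.14 to 4.68 for MOE and 3.98 to 5.24 for VNO. Their size is set by the pseudocount, since OB was at or near 0: for Krt5, VNO minus OB was 4.51 with a pseudocount of 0.5 and 6.74 with 0.1.

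Between the epithelia, 5 of the 7 genes were called and all 5 were lower in MOE, with 34.0% of all genes called lower there. The difference with the smallest p was that of Krt15, a keratin of basal cells of stratified epithelia. Krt15 was at 11.2, 14.97 and 6.90 FPKM in the 3 SF libraries of MOE, 10.1, 10.8 and 5.10 in SM, 8.46, 10.7 and 4.67 in CF and 7.07, 8.02 and 8.03 in CM. In VNO it was at 24.4, 20.0 and 12.3 FPKM in SF, 16.3, 35.4 and 12.7 in SM, 10.6, 18.3 and 12.3 in CF and 16.8, 21.3 and 47.3 in CM. The ranges of the tissues overlapped, with the lowest VNO value under the highest MOE value. The log2 difference, MOE minus VNO, was -1.10 (-1.46 to -0.75, adjusted p = 1.19e-06).

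Trp63 was also lower in MOE than in VNO, by a log2 difference of -0.32 (-0.44 to -0.20, adjusted p = 1.97e-05), and so were Lgr5 by -0.21 (-0.35 to -0.07, adjusted p = 0.00737) and Kit by -0.20 (-0.34 to -0.07, adjusted p = 0.00449). Krt5 was lower in MOE by -0.21 (-0.41 to -0.01, adjusted p = 0.0456). This call of Krt5 was lost on leaving out any 1 of 11 of the 36 libraries (MOE-SF3, MOE-SM3, MOE-CF1, MOE-CF3, MOE-CM3, VNO-SF1, VNO-SF2, VNO-SM2, VNO-CF2, VNO-CM3 or OB-SM3), with differences of -0.21 to -0.16 and adjusted p-values from just above 0.05 to 0.112. It was also lost with a pseudocount of 0.1 (adjusted p = 0.0574) and without the filter on low genes (0.0585), whereas the difference was -0.47 after upper quartile scaling (adjusted p = 3.35e-05) and -0.54 after quantile normalization (7.83e-06). Krt17 did not pass the test, at -0.35 (-0.82 to 0.13, adjusted p = 0.167), but did without VNO-SF3 (-0.50, adjusted p = 0.0322) and when values were scaled to the upper quartile (-0.61, adjusted p = 0.0184) or quantile normalized (-0.72). Krt14 did not pass either, at 0.17 (-0.14 to 0.48, adjusted p = 0.304), and its sign turned under these scalings (-0.08 and -0.10). The median gene of all those tested was 0.15 higher in MOE than in VNO as deposited and -0.06 after upper quartile scaling, so that these small differences move with the scaling. RNA integrity, as the study lists it, was lower in every VNO pool than in every MOE pool, and highest in OB. The part of RNA quality in the differences between tissues was not tested.

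**Figure D2:**
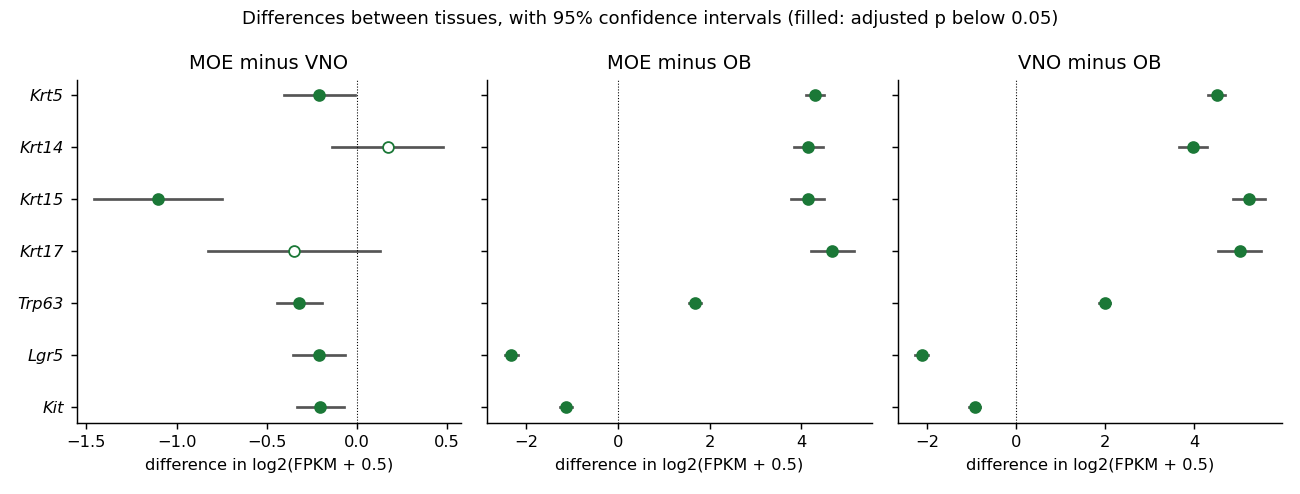
Differences between tissues in log2(FPKM + 0.5) for the 7 genes, averaged over the 4 groups, with 95% confidence intervals; filled points had an adjusted p below 0.05 in limma, open points did not, and the x axes differ between panels. Krt15 has the largest difference between MOE and VNO at -1.10, and Krt14 and Krt17 are the open points.

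Ranked by mean over the 12 combinations of tissue and group, the 8 epithelial combinations came before the 4 OB combinations for the 4 keratins and Trp63. The only gap between neighbours in that order was the one between epithelium and OB. For Krt15 the highest group was VNO-CM at 28.5 ± 16.4 FPKM (SD, n = 3) and the lowest epithelial group MOE-CM at 7.71 ± 0.556. For Krt17 the highest was VNO-SF at 29.3 ± 26.3 and the lowest epithelial group MOE-CF at 10.8 ± 3.22 FPKM. For Lgr5 the order ran from OB-CF at 5.75 ± 0.621 FPKM down to MOE-SF at 0.540 ± 0.206, and for Kit from OB-CF at 2.205 ± 0.198 down to MOE-SF at 0.628 ± 0.0471. The ranges of neighbouring groups overlapped in these orders except between OB and the epithelia and, for Kit, between MOE-SM at 0.774 ± 0.0303 FPKM and MOE-CF at 0.653 ± 0.0754.

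No difference between sexes or housings was detected for any of the 7 genes. The question of the study was whether living with the other sex changes how far the olfactory tissues of females and males differ. In MOE and VNO all 7 genes passed the minimum mean of 0.5 FPKM, and in OB only Lgr5 and Kit did. Of the 35 tests in MOE, 35 in VNO and 10 in OB, limma called 0, and 0, 1 and 1 of them had an unadjusted p under 0.05. The background was low as well. In MOE, 0.102% of 13757 genes were called for the sex difference of separated mice (SF against SM), 0.0436% for that of combined mice (CF against CM), 0.0363% for the interaction of sex and housing, 0.0509% between SF and CF and 0.0654% between SM and CM. In VNO the shares of 13849 genes were 0.0722%, 0.0433%, 0%, 0% and 0% in the same order (728, 1520 and 322 genes had an unadjusted p under 0.05 in the last 3 comparisons), and in OB the shares of 12795 genes were 0.0391%, 0.0469%, 0.00782%, 0.00782% and 0% (435 genes at an unadjusted p under 0.05 in the last).

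**Figure D3:**
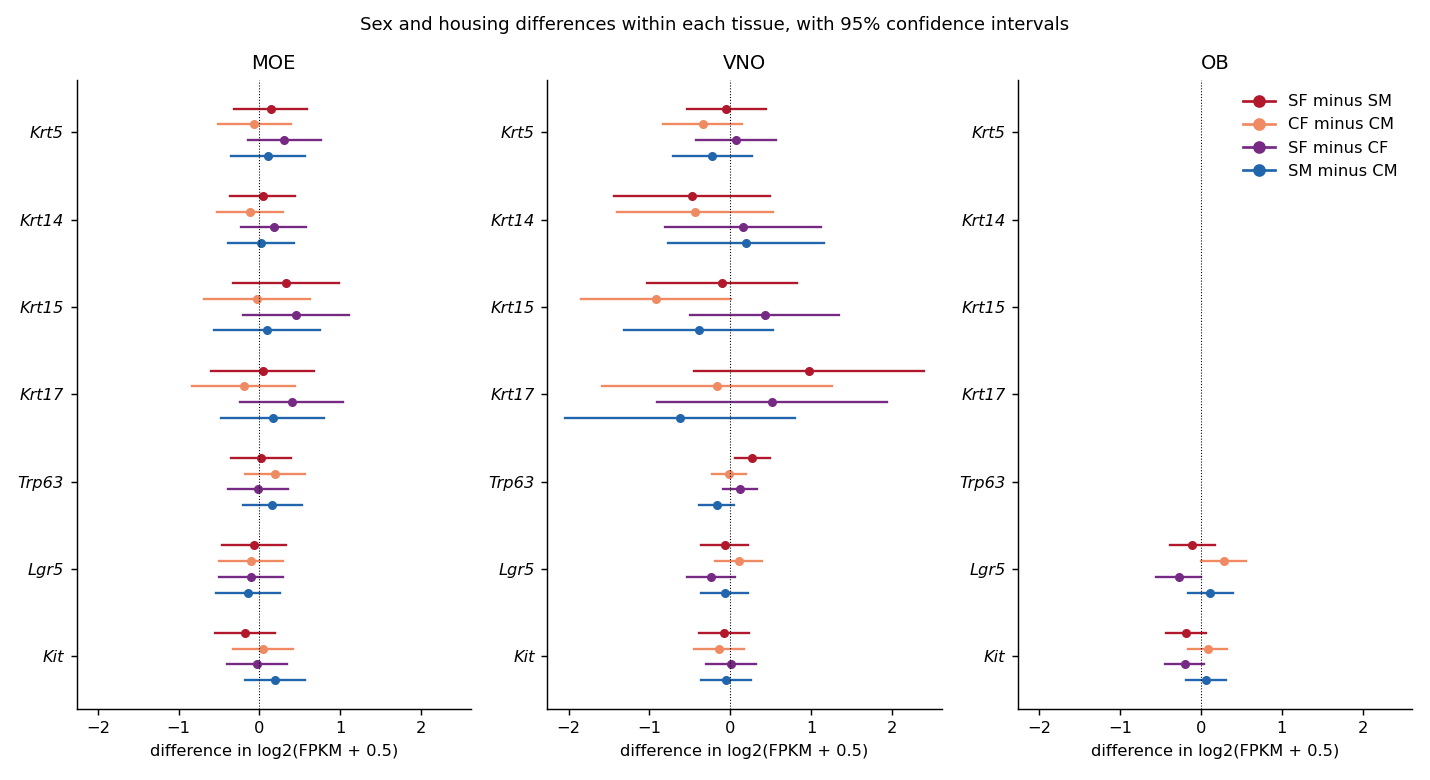
Differences in log2(FPKM + 0.5) between the sexes within a housing (SF minus SM, CF minus CM) and between the housings within a sex (SF minus CF, SM minus CM) for each gene and tissue, with 95% confidence intervals; genes under the minimum mean in OB have no point. Intervals for Krt17 in VNO are the widest, from -0.44 to 2.40 for SF minus SM, and those of Trp63, Lgr5 and Kit in VNO span less than 1 log2 unit.

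The smallest unadjusted p belonged to Trp63 in VNO. Its levels were 2.17, 2.83 and 2.38 FPKM in SF, 2.02, 1.93 and 1.86 in SM, 2.00, 2.48 and 2.18 in CF and 2.42, 2.15 and 2.16 in CM. The 3 SF libraries all lay above the 3 SM libraries, whereas CF and CM overlapped. The difference SF minus SM was 0.27 (0.06 to 0.49), with a limma p of 0.0162 that was 0.520 after adjustment, and the interaction with housing was 0.29 (-0.01 to 0.59, adjusted p = 0.895). The median of all genes in the comparison of SF with SM was -0.08.

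In OB, Lgr5 was at 4.12, 4.60 and 5.27 FPKM in SF, 4.16, 5.40 and 5.71 in SM, 5.81, 5.11 and 6.34 in CF and 4.35, 4.33 and 5.22 in CM. CF was the group with the highest mean, and its range overlapped that of each other group. The difference CF minus CM was 0.28 (0.01 to 0.56, adjusted p = 0.865), that of SF and CF -0.28 (-0.55 to 0.00, adjusted p = 1) and the interaction -0.39 (-0.79 to 0.00, adjusted p = 0.999). When libraries were weighted by their estimated quality, CF minus CM was called at 0.40 (adjusted p = 0.0396), SM minus CM at 0.31 (adjusted p = 0.0111) and the interaction at -0.51 (adjusted p = 0.0499). With those weights the number of genes called over all genes also rose, from 6 to 689, from 0 to 3147 and from 1 to 413.

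Kit in OB was at 1.51, 1.91 and 2.16 FPKM in SF, 1.94, 2.21 and 2.36 in SM, 2.26, 2.37 and 1.98 in CF and 1.97, 2.07 and 2.11 in CM. The groups overlapped, and the largest difference, SF minus CF, was -0.20 (-0.45 to 0.04, adjusted p = 1).

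Krt5 in MOE was at 11.1, 11.96 and 9.20 FPKM in SF, 10.1, 10.6 and 8.43 in SM, 8.06, 11.1 and 6.94 in CF and 9.59, 11.2 and 6.63 in CM. In every group, replicate 2 was the highest library and replicate 3 the lowest. Krt15 in MOE had this order in SF, SM and CF but not in CM. The fit reported here does not use replicate numbers. SF minus CF was 0.31 (-0.15 to 0.76, adjusted p = 1), and 0.41 with an adjusted p of 0.0465 when libraries were weighted, a setting under which 2225 instead of 7 genes were called over all genes. The lowest MOE values of Krt5, Trp63 and Kit were all in CM3, and those of Krt14, Krt15 and Krt17 in CF3. CM3 was the MOE library with the fewest estimated fragments and had a weight of 0.0503 in the weighted fit. Replicate 3 was also the lowest library of Krt14 and Krt17 in SM, CF and CM, but not in SF. Leaving out CM3 or any other MOE library gave no call for any of the 7 genes.

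In VNO, Krt15 was lower in CF than in CM by a log2 difference that did not pass the test, -0.92 (-1.84 to 0.00, adjusted p = 1), with 1 CM library, CM3, at 47.3 FPKM. Krt17 had the widest spread between replicate pools. It was at 19.6, 59.2 and 9.23 FPKM in SF, 7.58, 17.6 and 9.94 in SM, 7.28, 34.1 and 14.3 in CF and 9.99, 20.6 and 24.8 in CM. The highest SF value was 8.12 times the lowest value of the tissue, and SF minus SM was 0.98 (-0.44 to 2.40, adjusted p = 0.650). Replicate 2 was the highest library in SF, SM and CF but not in CM, and this interval is from the fit that does not use replicate numbers. In MOE, Krt17 ran from 7.19 to 23.6 FPKM, with SM2 the highest library.

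Markers of stratified squamous epithelium were read beside Krt17 in VNO, without a test. The summed level of the 10 squamous genes in the tables was highest in VNO-SF2 (46.7 FPKM) and VNO-CF2 (35.6 FPKM), the libraries with the highest Krt17, and ran from 17.6 to 46.7 FPKM over the 12 VNO libraries and from 5.93 to 15.6 in MOE. The other libraries did not follow that order: VNO-SM3 was the next highest in the sum (33.7 FPKM) with Krt17 at 9.94, and VNO-CM3 and VNO-SM2, with Krt17 at 24.8 and 17.6, had sums of 22.2 and 18.7 FPKM against a median of 22.4. The leading gene of the list in VNO was Sprr1a, a cornified envelope protein, and Sprr1b was listed at 0 in all VNO libraries. The 3 genes most like Krt17 over the 12 VNO libraries were Spink5, a protease inhibitor of stratified epithelium (r = 0.95), Crct1, a gene of the epidermal differentiation cluster (r = 0.95), and Asprv1, an aspartic protease of the upper epidermis (r = 0.93), out of 13842 genes searched on log2(FPKM + 0.5). Without the 2 libraries farthest from the median the values were 0.87, 0.88 and 0.81. The part of squamous epithelium in the Krt17 differences was not tested.

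For the other genes, likeness was also measured over the 12 libraries of the tissue with the highest mean, which share depth and dissection within each pool. Krt5 in VNO was most like Ifi202b (r = 0.90), Aldh3a1 (0.86) and Pkp1 (0.85), the last a plakophilin of desmosomes. Krt14 in MOE was most like Krt6b (0.91), Krt6a (0.89) and Krt4 (0.88), 3 other keratins, and with ranks the values fell to 0.59, 0.61 and 0.49. Krt15 in VNO was most like Gsto1 (0.92), Gabrp (0.88) and Hirip3 (0.87), and Trp63 in VNO like Aff3 (0.92), Ggcx (0.85) and Nhp2 (0.83). In OB, Lgr5 was most like Pigm, Kantr and Omg (0.94 for each), and Kit like Ypel4 (0.93), Gpatch1 (0.92) and Rasal2 (0.91).

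Among the 7 genes themselves, 21 pairs were compared in each epithelium over 12 libraries. In MOE, only Krt14 and Krt17 passed with Pearson's r = 0.91 (permutation p = 4e-05, adjusted p = 0.00084), with Spearman's rho = 0.66 (adjusted p = 0.206) and r = 0.83 without the 2 libraries farthest from the median. These 2 genes also share 50-base words, as shown above, and the part of such reads in their correlation was not tested. In VNO, Krt5 and Krt15 (r = 0.83, permutation adjusted p = 0.0157, rho = 0.85, r = 0.83 without 2 libraries) and Krt5 and Krt14 (r = 0.79, permutation adjusted p = 0.0267, rho = 0.76, r = 0.65 without 2 libraries) passed. Without VNO-CF1 or without VNO-CM3 no VNO pair passed, with r = 0.81 and 0.79 for Krt5 and Krt15 and 0.76 and 0.75 for Krt5 and Krt14. The latter pair also missed the threshold without VNO-SF2, SF3, SM1, CF3 or CM2 (r = 0.73 to 0.79). On deviations from the group means, 2 pairs passed in MOE, Krt14 with Krt17 (0.90) and Krt5 with Kit (0.76), and 5 passed in VNO, of which Krt5 with Krt17 and Krt14 with Krt17 had the highest r, 0.88 each.

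**Figure D4:**
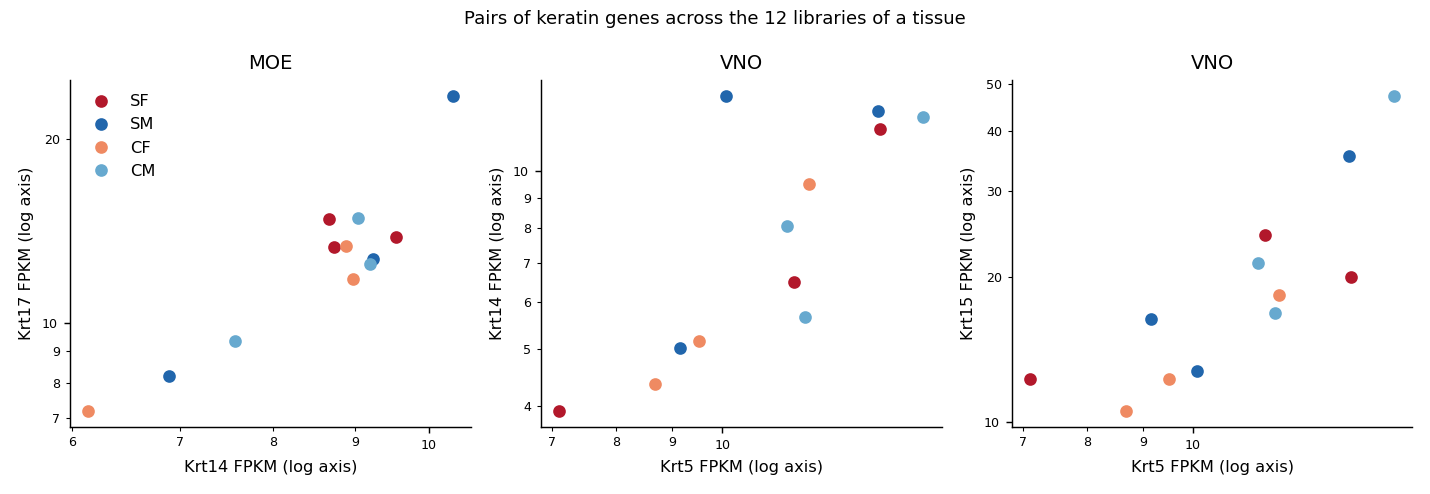
FPKM of pairs of keratin genes in the 12 libraries of MOE (Krt14 and Krt17) and VNO (Krt5 with Krt14 and with Krt15), on log axes, with points coloured by group. The pairs rise together, with r of 0.91, 0.79 and 0.83 on log2(FPKM + 0.5), and no group stands apart.

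Trp63 was read from its downstream start in the epithelia. The deposited tables list 5 transcripts that begin at chr16:25802002 (mm9) and give the DN form, and 3 that begin at chr16:25683851 and give the TA form. Over the 12 MOE libraries the DN transcripts summed to 1.68 ± 0.246 FPKM (SD) and over the 12 VNO libraries to 2.21 ± 0.272, while the TA transcripts were listed at 0 in all 24. In OB, the TA transcripts were above 0 in 1 of 12 libraries, at 0.0945 FPKM, and the DN transcripts in 11. These are the quantifier's assignments of fragments to transcripts that share most of their exons, and single isoforms alternated between 0 and the whole gene from library to library.

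The same holds for Krt14 and Kit. Krt14 (chr11:100064476-100068824, mm9) was assigned mainly to NM_016958, with 6.91 FPKM in MOE and 7.79 in VNO. A transcript that begins inside the gene, NM_001313957, was above 0 in 9 of 12 MOE libraries, at a mean of 1.69 FPKM, in 0 of 12 VNO libraries and in 2 of 12 OB libraries. The single promoter window that RefSeq's table gives for Krt14 lies at such an inner start and is shown for that reason, from 250 bases before to 50 bases after it on the minus strand (chr11:100205981-100206280, GRCm38.p6). On either strand it holds no TATA box (TATAAA), no AP-1 motif (TGANTCA) and no GC box (GGGCGG), which 13.6%, 7.81% and 35.7% of the 32851 windows of this length hold.
Krt14 inner start: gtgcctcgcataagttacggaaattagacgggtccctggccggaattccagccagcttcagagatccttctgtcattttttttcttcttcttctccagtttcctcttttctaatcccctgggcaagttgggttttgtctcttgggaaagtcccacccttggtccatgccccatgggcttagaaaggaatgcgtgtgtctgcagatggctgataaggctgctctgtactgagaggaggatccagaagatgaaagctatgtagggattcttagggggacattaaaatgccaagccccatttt
For Kit (chr5:75971012-76052746, mm9), the transcript without the inserted bases was above 0 in 9 MOE libraries and the one with them in the other 3, which were the 3 CF libraries (0.653, 0.728 and 0.577 FPKM). In VNO the transcript with the insertion was above 0 in 2 libraries, SF1 and SM3, and the other in 10. In OB both were used, the one with the insertion in 11 libraries at a mean of 1.20 FPKM and the other in 8 at a mean of 0.873 FPKM. In the epithelia each library thus gave the whole of Kit to a single transcript, on 29.0 to 105 fragments, and no test was made of this split.

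**Figure D5:**
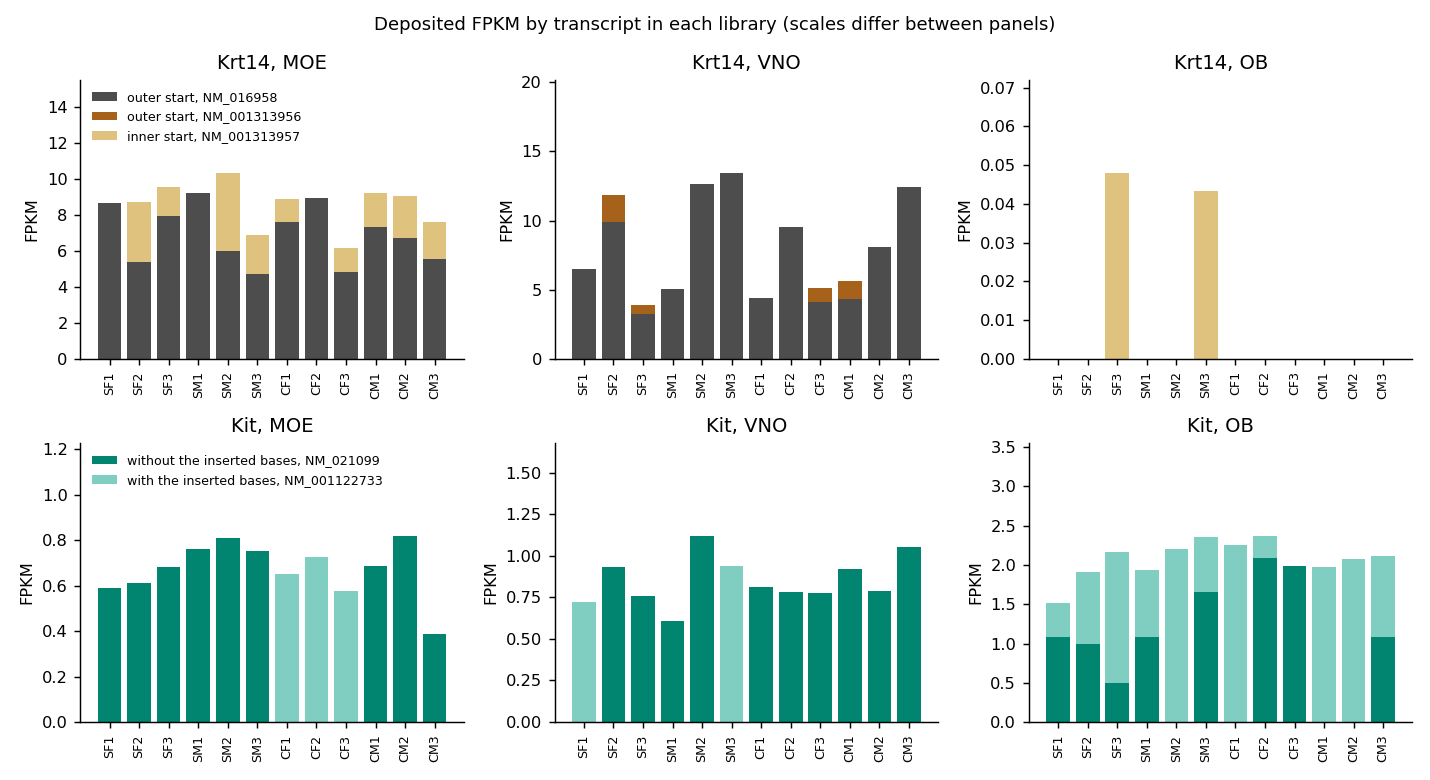
Stacked FPKM of the transcripts of Krt14 (upper row) and Kit (lower row) in each library of MOE, VNO and OB, from 0, with scales that differ between panels. The inner-start transcript of Krt14 appears in 9 MOE libraries and in no VNO library, and each MOE and VNO library holds a single Kit transcript.

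Genes that work with these 7 were read from fixed lists, by the counts called between tissues. Of all genes, 82.6% were called between MOE and VNO, 48.6% higher in MOE and 34.0% lower, so that a list in which most genes were called is near this background, and the counts are given as a description. Hemidesmosome and basement membrane genes anchor basal cells, and 8 of 9 were lower in MOE than in VNO and 1 higher, with a median of -0.41 against 0.15 for all genes. Itgb4, the integrin beta 4 of hemidesmosomes, was at 0.842 FPKM in MOE and 4.23 in VNO (log2 difference -1.82), and Plec, which ties keratin to that integrin, at 3.24 and 16.2 FPKM (-2.16). Of 7 desmosome genes tested, 5 were lower in MOE, 1 was higher and 1 did not pass, with Dsp, the desmoplakin that links keratin to desmosomes, at -1.51 and Dsc3, a desmosomal cadherin of basal cells, at 2.18. Against OB, 5 of the 9 anchoring genes were higher in MOE, 3 were lower and 1 did not pass, and 6 of the 7 desmosome genes were higher and 1 lower (85.1% of all genes were called, 45.7% higher in MOE). In VNO, 8 of the 9 were higher than in OB and 1 did not pass, and 7 of the 7 desmosome genes were higher (85.8% of all genes, 37.8% higher in VNO). Within OB, 7 of the 9 anchoring genes but only 2 of the 9 listed desmosome genes reached the minimum mean of 0.5 FPKM. Genes that passed only through the epithelia had to be higher there, so the desmosome counts against OB were largely fixed in advance. Regulators linked to horizontal basal cells, including Notch receptors and Egfr, were lower in MOE than in VNO for 8 of 12 and higher for 3, with Cav1 (-1.40), Notch1 (-0.99), Cd44 (-1.20) and Icam1 (-1.23) the smallest in p. Their gene with the highest level was Sox2 in each of the tissues, with 20.1 FPKM in MOE, 27.7 in VNO and, lowest, 12.9 in OB. Of 9 other keratins tested, 4 were lower in MOE than in VNO and 1 higher, and Krt18, a keratin of simple epithelium, led in MOE and VNO at 147 and 101 FPKM against 0.0778 in OB.

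Genes of dividing globose cells and neuronal progenitors were mostly higher in MOE. Of 9 tested, 7 were higher in MOE than in VNO and 1 was lower, with a median of 0.94 against 0.15 for all genes and beside 48.6% of all genes called higher in MOE. Within MOE, 9 of the 12 listed genes reached the minimum mean of 0.5 FPKM, and within VNO 8 did. A gene under the minimum in VNO passed only through other tissues, so these counts are given as a description. Sox11, a factor of immature neurons, was at 5.22 FPKM in MOE and 1.19 in VNO (1.75), and Top2a, which is needed for chromosome separation in dividing cells, at 3.36 and 1.3 FPKM (1.09). Ezh2, a histone methyltransferase (0.97), and Hes6, a factor of neuronal differentiation (1.11), followed. Lgr5 and Kit, the listed globose cell genes, were lower in MOE than in VNO, as given above.

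Around Lgr5, 13 genes of R-spondin and Wnt signalling were read, of which 10 could be tested. The minimum mean of 0.5 FPKM was reached by 9 within MOE, 10 within VNO and 8 within OB. Genes under it in a tissue passed only through the others, so the counts are given as a description. Between MOE and VNO, 8 were lower in MOE and 1 higher (34.0% and 48.6% of all genes), with Lrp5, a Wnt co-receptor (-1.57), Lgr6, a relative of Lgr5 (-1.28), and Nkd1 (-1.07) and Axin2 (-0.62), both induced by Wnt signalling, the smallest in p. Between MOE and OB, 4 were lower in MOE and 5 higher (39.3% and 45.7% of all genes). Rspo3, an R-spondin that binds Lgr5, was at 0.915 FPKM in MOE and 0.886 in VNO but 6.70 in OB (MOE minus OB -2.35), and Lgr6 was likewise higher in OB (-1.83). Rnf43, a ubiquitin ligase that R-spondins hold in check, was higher in MOE (1.58). Lgr4, another receptor of R-spondins, had the highest level of the list in MOE and OB, at 13.6 and 14.7 FPKM.

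Around Kit, 10 genes were tested, of which 7 were lower in MOE than in VNO and 1 higher, again beside 34.0% and 48.6% of all genes. The gene that was higher was Kitl, which encodes stem cell factor itself, at 6.77 FPKM in MOE and 4.24 in VNO (MOE minus VNO 0.61), with 10.1 in OB. Sh2b3, an adaptor that dampens Kit signalling (-1.28), Pik3r1, a subunit of phosphoinositide 3-kinase (-0.91), and Shc1 (-0.81) were lower in MOE. Between MOE and OB, 5 were lower in MOE and 3 higher (39.3% and 45.7% of all genes), with Grb2, an adaptor of receptor kinases, at 4.62 FPKM in MOE against 40.5 in OB.

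Markers of other cells that use these genes also differed between MOE and VNO, as did 82.6% of all genes (48.6% higher in MOE and 34.0% lower). Of 10 mast cell genes 5 could be tested, and 4 of them were higher in VNO than in MOE, among them Cma1, a chymase, at 4.09 FPKM in VNO against 0.235, and Cpa3, a carboxypeptidase of mast cell granules, at 2.51 against 0.194. All 4 of these genes passed the minimum mean only through VNO and so had to be higher there. The fifth, Hdc, which makes histamine, was higher in MOE (15.1 against 8.54 FPKM). The summed level of the list was 10.3 to 19.3 FPKM in MOE, most of it Hdc, and 16.9 to 26.2 in VNO. It was 0.280 to 0.733 in OB, where Kit was highest and Tpsab1, Fcer1a and Mrgprb2 were listed at 0. All 5 myoepithelial and smooth muscle genes tested were higher in VNO than in MOE, with a summed level of 485 to 645 FPKM in VNO and 66.7 to 137 in MOE, led by Myl9 in both. Of 7 respiratory epithelium genes, 4 were higher in MOE and 2 in VNO, with Scgb1a1 listed at 0 in MOE, and all 5 sustentacular cell genes were higher in MOE. The part of these cells in the tissue differences of the 7 genes was not tested.

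Within tissues, 116 genes of the lists outside the 7 gave 1395 tests of sex and housing, and limma called 1, a share within the 0% to 0.102% of all genes called in these comparisons, so the lists did not stand apart. It was Gad1 in VNO, which was lower in SF than in SM by -0.86 (adjusted p = 0.0296).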

How the data were processed

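The study sequenced rRNA-depleted, stranded total RNA as pairs of 50 bases. The authors aligned the reads with TopHat2 2.1.0 and quantified them with Cufflinks 2.2.1.0 on mm9 (versions and build per the labels), and deposited an FPKM with confidence limits for each RefSeq transcript. Rows were named by accession (99.73%) and FPKM summed by gene, leaving out genes with an entry not marked OK (5 in MOE, 1 in VNO, 1 in OB). The MOE tables list 40150 rows and the others 40008, so levels across tissues rest on slightly different annotations. Fragments behind a value were estimated as (FPKM/SE) squared, where the deposited limits are FPKM ± 2 SE, and cover counting error only.

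limma 3.58.1 in R 4.3.3 (lmFit, eBayes with a trend) was run on log2(FPKM + 0.5), a scale that understates changes of low genes, with low genes (mean FPKM under 0.5) left out, in 1 fit per tissue over 12 libraries and in 1 fit over 36 libraries for tissues, with Benjamini-Hochberg adjustment over all genes tested. Correlations were tested by two-sided permutation with 100000 resamples and adjusted over the 21 pairs of a tissue. The resamples exchange libraries freely across groups and replicate numbers. The labels give no batch. Pools of different mice count as replicates. Residuals of libraries with the same replicate number correlated over 0.1 in all 3 pairs of VNO SF with SM (0.13 to 0.20) and SF with CF (0.10 to 0.27). The numbers are therefore taken as possible pairs there, from the data alone, although differently numbered VNO libraries reached 0.16. In the comparisons of SF with SM and SF with CF the replicate block changed no call of the 7 genes, and the values given are from the fit without it. Python 3.11.15, numpy 2.4.6, pandas 2.3.3, scipy 1.17.1 and matplotlib 3.10.9 were used, and the limma fit was tested on simulated data. Alternatives were pseudocounts of 0.1 and 1, no filter, quantile and upper quartile scaling, library weights, a replicate block, a fit on the 6 libraries of the 2 groups alone, and leaving out every library in turn. Named were the 7 genes, from each of 15 lists the gene with the highest mean and up to 4 called genes with the smallest p, the 3 genes most like each of the 7, and Omp, Xist and Uty. Rspo3 beside MOE and VNO levels and genes at 0 were named after their values were seen. The 7 genes and all lists were chosen with earlier results of these data known. Promoter windows are from RefSeq (GRCm38.p6), given for 3 of the 7 genes, and coding sequences from GENCODE M21. Counts on strand and other read-level checks were not made.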

Additional observations from a re-analysis of the deposited data

How the results depend on the processing

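Lgr5 and Kit were called between either epithelium and OB under all alternatives run, and 4 to 6 of the 7 genes between MOE and VNO (5 as reported). Weighting the libraries by estimated quality added 1 call each in MOE (SF against CF, Krt5) and in OB (CF against CM, SM against CM and the interaction, Lgr5), and the cause was not tested. No other alternative gave a call for sex or housing: of 1584 alternative values, 1580 stayed on the same side of the threshold, and 96 that were called in neither fit changed sign. With the replicate number as a block within a tissue (replicate block), 0 of the 7 genes were called for sex or housing. In the fit over tissues the block was instead group and number together, as if same-named pools of the tissues shared mice. The estimated correlation within those blocks was -0.04. In that fit limma called 4 instead of 5 genes between MOE and VNO, where Krt5 had an adjusted p of 0.0520. In VNO, where the numbers were taken as possible pairs of SF with SM and SF with CF, the block gave 7 instead of 10 calls over all genes for SF against SM, and 0 for SF against CF as without it (1614 genes had an unadjusted limma p under 0.05). Elsewhere, residuals over all genes tested did not show same-numbered libraries to be paired. They correlated between -0.07 and 0.24 within MOE, -0.12 and 0.20 within OB and -0.14 and 0.25 in the other pairs of VNO groups. Between MOE and VNO libraries of a group they correlated between -0.10 and 0.14. Krt5 in MOE nevertheless kept the same order of replicate numbers in every group, as given above. Pairing was not tested for single genes. The number of correlated pairs was 1 in MOE as reported, 2 on deviations from the group means, 3 after quantile normalization and 1 to 2 on leaving out a library. In VNO it was 2 as reported, 5 on deviations, and 0 to 5 on leaving out a library. For the counts of list genes called, 56 of the alternative counts moved by more than 1.5 times, 53 of them for sex or housing. With 3 pools per group, intervals of the Krt17 differences in VNO are as wide as -0.44 to 2.40 in the fit without the block. Smaller changes were not detectable in that fit. Lgr5 and Kit in MOE rest on at most 56.1 and 66.2 fragments per library.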
